A study of Mus musculus with 6 samples.

Results

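The data described here are the probe sets of 10 mouse genes, the trophectoderm transcription factors Tfap2c, Tfap2a, Cdx2, Eomes, Elf5, Hand1 and Gata3 and the simple-epithelium keratins Krt8, Krt18 and Krt19. They were chosen by gene symbol alone: every probe set annotated with 1 symbol that is one of these names was taken, whatever its value. This gave 20 of the 45037 probe sets tested on the array, or 10 of 18193 genes. Tfap2c, Tfap2a and Krt8 had 3 probe sets each, Cdx2, Eomes, Elf5 and Hand1 had 2 each, and Gata3, Krt18 and Krt19 had 1 each.

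The series holds 6 Affymetrix Mouse Genome GeneChips, hybridized with RNA of embryonic stem (ES) cells of the mouse from 3 clones called A1, B3 and C6. All of the clones derive from EBRTcH3 (EB3), an ES line whose Rosa26 locus accepts a transgene under a promoter that tetracycline represses, and all carry there the human GTF2I open reading frame with a 3xFLAG tag and without its untranslated regions. GTF2I encodes TFII-I, a transcription factor encoded in the interval deleted in Williams-Beuren syndrome. The induced group is the 3 clones after 24 h in medium without tetracycline (n = 3), and the uninduced group is the same 3 clones kept in tetracycline (0 h without it, n = 3). Each clone thus gave 1 induced and 1 uninduced array, both groups grew with LIF and carried the transgene, and no array of the parental line was analysed here. The titles name the transgene as GTF2I whereas a characteristics field names GTF2IRD2, and the titles were followed. Each clone is a single isolate with 1 array in each state.

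The trophectoderm is the outer epithelium of the blastocyst and the founder of the placenta. In the mouse embryo Tead4 with its coactivator Yap1 turns on Cdx2 and Gata3 in outer cells, Eomes and Elf5 maintain trophoblast stem cells, and Hand1 drives the differentiation of giant cells. Tfap2c and Tfap2a encode AP-2 factors, which act in trophoblast and in surface ectoderm. Keratins 8, 18 and 19 form the intermediate filaments of simple epithelia, with keratin 8, a type II keratin, pairing with the type I keratins 18 and 19. They are among the first keratins of the embryo and are made in trophectoderm. ES cells come from the inner cell mass and are held away from the trophoblast fate in part by Oct4, the product of Pou5f1.

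Across the arrays, the values were log2 probe-set summaries made by robust multiarray averaging (RMA), with array medians of 5.06 to 5.11 and array correlations of 0.991 to 0.996. The 10 ES cell markers examined all averaged at least 6, and their list mean was 12.04 to 12.23 on induced arrays and 12.13 to 12.15 on uninduced arrays. Of the 10, Esrrb, an orphan nuclear receptor, was the 1 called as changing in A1 unlike in B3 and C6, by 1.02 ± 0.20 (SE; limma, adjusted p = 0.0347), where induced minus uninduced was 0.51 for A1, -0.36 for B3 and -0.65 for C6. The same comparison called 5.47% of the 17168 probe sets averaging 6 or more. It was chosen with the direction of A1 already known, and its other limits are given below. Of 10 markers of mature trophoblast 5 were measured, and 0 of these reached a mean of 6, with list means of 4.10 to 4.26 on induced arrays and 4.10 to 4.20 on uninduced arrays, and Tpbpa and Psg17 lay below the lower quartile on all 6 arrays. Clone A1 stood apart in the direction of its induced minus uninduced differences, which ran opposite to those of both B3 and C6 at 60.3% of the 17168 probe sets that averaged 6 or more, at 41.4% of all probe sets and at 8 of the 20 probe sets described here. The labels were followed. From these arrays a clone that responds in the opposite direction and an exchange of the labels of its induced and uninduced arrays cannot be told apart, and with such an exchange the sign of each A1 change given here would turn and the comparison of induced with uninduced arrays would be another one. The comparisons below are therefore given per clone, and without A1 where that changes a call.

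**Figure D1:**
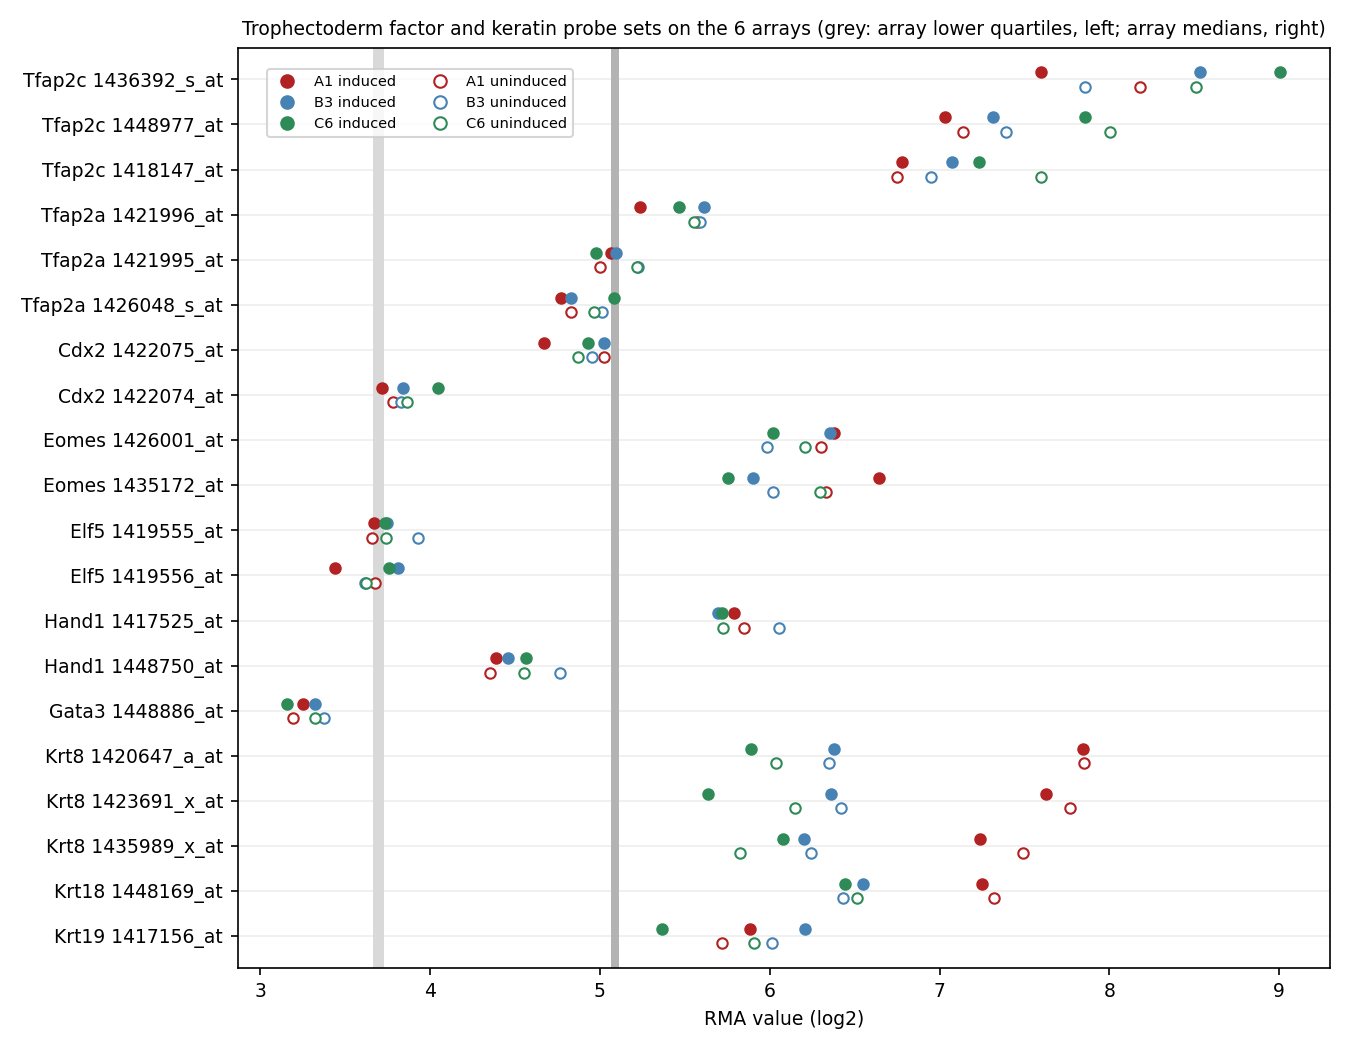
RMA values (log2, x axis) of the 20 probe sets of the 10 genes (rows) on the 6 arrays. Filled points are induced and open points uninduced arrays, coloured by clone, and the grey bands span the array lower quartiles and array medians. The 3 Krt8 probe sets and Krt18 have both A1 points to the right of all others, and Gata3 lies left of the lower-quartile band.

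The 20 probe sets fell into bright and dim ones. A total of 12 lay above the array median on all 6 arrays, 7 lay below it on all 6, and 1 of Tfap2a lay on both sides of it. The 7 dim ones were both probe sets of Cdx2, both of Elf5, 1 each of Hand1 and Tfap2a, and Gata3, which was the only one of the 20 under the lower quartile on every array. A mean of at least 6 was reached by 9 probe sets, of Tfap2c, Eomes, Krt8 and Krt18.

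Among the transcription factors, Tfap2c was read by 3 probe sets, all above the array median. Probe set 1436392_s_at, whose suffix marks probes shared by several transcripts, read 7.60, 8.53 and 9.01 in induced clones A1, B3 and C6 against 8.18, 7.86 and 8.51 in the same clones uninduced. Probe set 1448977_at read 7.03, 7.31 and 7.86 induced against 7.14, 7.39 and 8.00 uninduced. Probe set 1418147_at read 6.78, 7.07 and 7.23 induced against 6.75, 6.95 and 7.60 uninduced. On 1448977_at and 1418147_at the arrays ordered by clone, with both C6 arrays above and both A1 arrays below all others, whereas on 1436392_s_at the 2 arrays of each clone lay 0.49 to 0.68 apart. Over the 6 arrays 1448977_at and 1418147_at correlated at r = 0.94 with each other and at 0.73 and 0.65 with 1436392_s_at.

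Eomes, a T-box factor, was read by 2 probe sets above the array median. Probe set 1426001_at read 6.38, 6.35 and 6.02 in induced A1, B3 and C6 against 6.30, 5.99 and 6.21 uninduced. Probe set 1435172_at read 6.64, 5.90 and 5.76 induced against 6.33, 6.02 and 6.29 uninduced. Both A1 arrays were the highest on the second by a margin of 0.04, and the clones overlapped on the first.

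The remaining factors varied little. Cdx2, the caudal-type homeobox factor that specifies trophectoderm, read 4.67, 5.02 and 4.93 on its brighter probe set in induced A1, B3 and C6 against 5.03, 4.96 and 4.87 uninduced. Gata3, a zinc finger factor that acts beside Cdx2, read 3.25, 3.32 and 3.16 induced against 3.19, 3.37 and 3.32 uninduced. Hand1, a basic helix-loop-helix factor, read 5.79, 5.69 and 5.72 on its brighter probe set induced against 5.85, 6.06 and 5.72 uninduced. In each of these genes the groups overlapped. Tfap2a read 5.23, 5.61 and 5.46 on its brightest probe set in induced A1, B3 and C6 against 5.57, 5.59 and 5.55 uninduced. Elf5, an ETS factor, read 3.67, 3.75 and 3.73 on its brighter probe set induced against 3.66, 3.93 and 3.74 uninduced. The range over the 6 arrays was 0.22 to 0.89 for the 13 probe sets of genes other than Tfap2c, Krt8 and Krt18, the widest being 1 of Eomes.

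The second probe sets of these factors gave no separation by induction either. Cdx2 1422074_at read 3.72, 3.84 and 4.05 in induced A1, B3 and C6 against 3.78, 3.83 and 3.87 uninduced, with both A1 arrays lowest and both C6 arrays highest. Hand1 1448750_at read 4.39, 4.46 and 4.56 induced against 4.35, 4.77 and 4.55 uninduced, and Elf5 1419556_at read 3.44, 3.81 and 3.75 induced against 3.67, 3.61 and 3.62 uninduced. Of these dim probe sets Elf5 1419556_at lay under the lower quartile on 3 of 6 arrays. Tfap2a 1421995_at read 5.06, 5.09 and 4.98 in induced A1, B3 and C6 against 5.00, 5.22 and 5.22 uninduced, and Tfap2a 1426048_s_at read 4.77, 4.83 and 5.08 induced against 4.83, 5.01 and 4.96 uninduced. The induced and uninduced arrays overlapped on each of the 5.

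The keratins split by clone. Krt8 read 7.84, 6.38 and 5.89 on probe set 1420647_a_at in induced A1, B3 and C6 against 7.85, 6.35 and 6.04 uninduced. Its 1423691_x_at read 7.62, 6.36 and 5.64 induced against 7.77, 6.42 and 6.15 uninduced, and its 1435989_x_at read 7.24, 6.20 and 6.08 induced against 7.49, 6.25 and 5.83 uninduced. The suffix _x_at marks probe sets with some probes that may bind other transcripts. The first of the 3 represents the gene because its mean over the arrays was the highest. On all of them both A1 arrays lay above the 4 others by at least 0.99, and both C6 arrays lay below the others. Krt18 read 7.25, 6.55 and 6.45 induced against 7.32, 6.43 and 6.52 uninduced, with both A1 arrays again on top by 0.70. Krt19 read 5.88, 6.21 and 5.36 induced against 5.72, 6.01 and 5.91 uninduced, and its A1 arrays lay among the others.

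Krt8 and Krt18 are next to each other on chromosome 15, and their promoters are shown because the pair differed together between clones. The windows run from 250 bases before to 50 bases after the RefSeq start on GRCm38.p6, read 5′ to 3′ on the strand of the gene. Capitals mark the motif matches found: in Krt8 TATAAA on both strands in overlapping positions, and in Krt18 GCCNNNGGC, the palindromic consensus of AP-2 factors such as Tfap2c.
Krt8, minus strand, chr15:102004293-102004592: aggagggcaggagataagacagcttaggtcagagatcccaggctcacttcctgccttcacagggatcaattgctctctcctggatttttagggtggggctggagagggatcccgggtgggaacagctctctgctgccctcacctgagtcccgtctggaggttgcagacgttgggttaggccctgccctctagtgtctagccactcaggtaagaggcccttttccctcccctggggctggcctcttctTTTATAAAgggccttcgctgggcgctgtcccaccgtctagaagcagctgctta
Krt18, plus strand, chr15:102027966-102028265: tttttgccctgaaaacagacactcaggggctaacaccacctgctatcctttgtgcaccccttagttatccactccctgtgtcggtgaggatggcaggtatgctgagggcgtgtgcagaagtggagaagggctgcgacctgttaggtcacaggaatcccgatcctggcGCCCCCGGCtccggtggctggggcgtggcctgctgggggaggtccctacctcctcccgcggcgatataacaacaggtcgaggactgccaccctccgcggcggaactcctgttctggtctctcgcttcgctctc

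Of the 32851 mouse promoter windows of this length, 16.6% held GCCNNNGGC and 13.6% held TATAAA. The other motifs searched on both strands were the E-box CACGTG (7.15% of windows), the AP-1 site TGANTCA (7.81%), the caudal site TTTATNG (10.9%) and the T-box motif TCACACCT (1.28%). Promoter windows were found for 7 of the 10 genes. The AP-2 consensus also matched once in a window of Cdx2 and 3 times in one of Gata3, and no other match to the 6 motifs was found in the windows of the 7 genes. A match is a description of the letters and no test of binding was made.

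The question the design asks is whether a gene differs between induced and uninduced cells. None of the 20 probe sets passed this comparison (limma, adjusted p = 1.00 for each), and 0% of all 45037 probe sets passed it (limma, smallest adjusted p = 1.00, with 436 at an unadjusted p under 0.05, none of them among the 20). The differences, induced minus uninduced on the log2 scale, ran between -0.24 and 0.20 with a median of -0.06, against a median of 0.00 over all probe sets. A total of 16 were below 0 and 4 above. For Krt8 1420647_a_at the difference was -0.04 ± 0.59 (SE, n = 3 and 3), with a 95% interval of -1.41 to 1.32. With the clone as a replicate block, which also gave 0 calls and 847 probe sets at an unadjusted p under 0.05, its interval was -0.27 to 0.18, and that of Krt18 was -0.24 to 0.22 around a difference of -0.01. Over the 20 probe sets the lowest end of a blocked interval was -0.52, of Krt8 1423691_x_at, and the highest was 0.76, of Tfap2c 1436392_s_at.

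**Figure D2:**
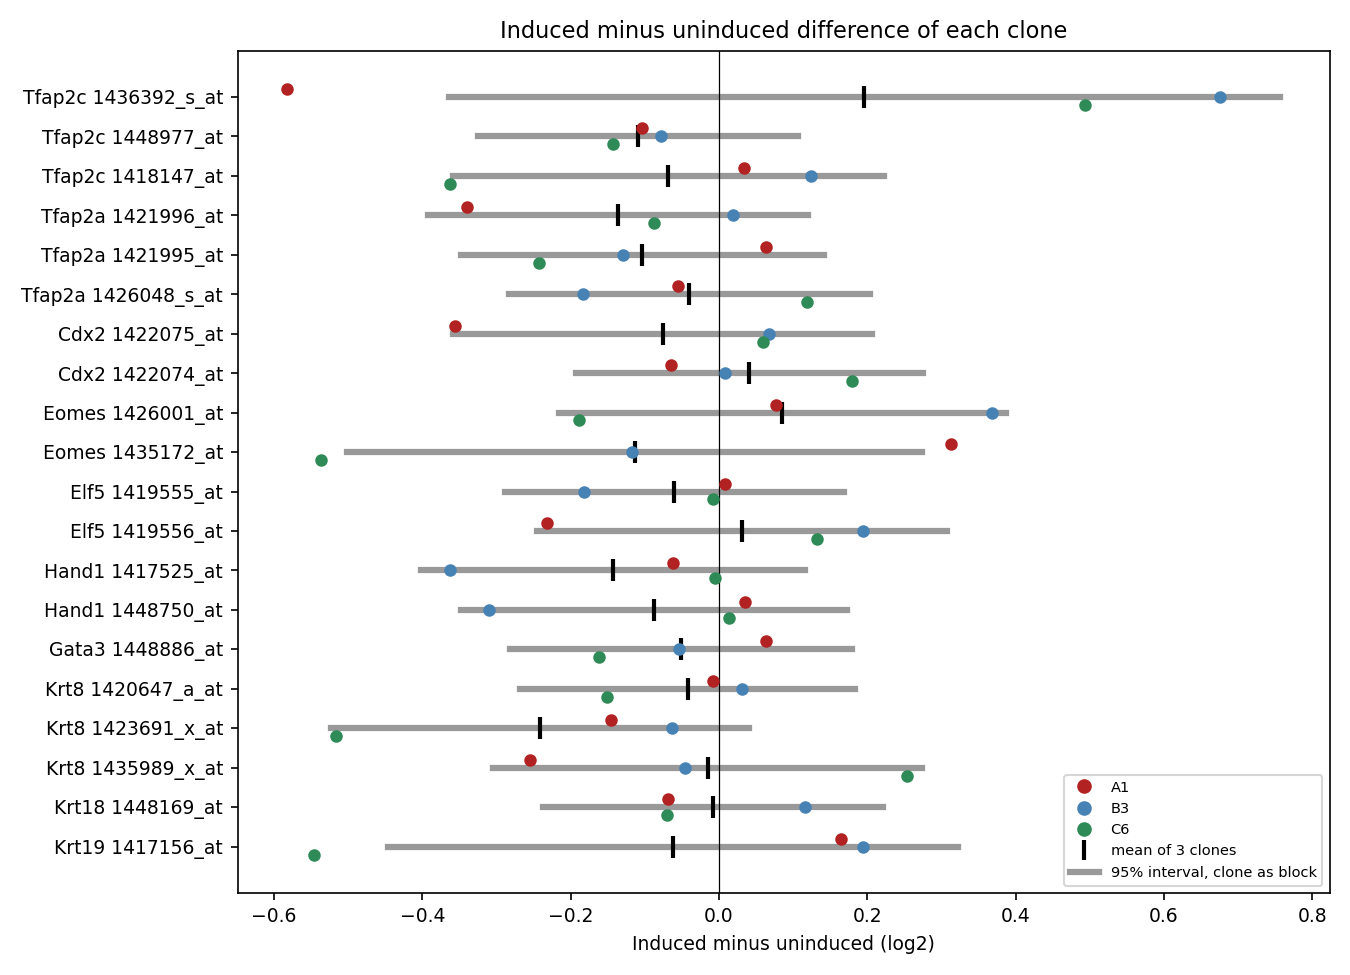
Induced minus uninduced difference (log2, x axis) of each clone (coloured points) for the 20 probe sets (rows), with the mean of the 3 clones (black tick) and the 95% interval of the fit with the clone as a block (grey bar). All grey bars cross 0, and on Tfap2c 1436392_s_at the A1 point at -0.58 lies opposite to B3 at 0.68 and C6 at 0.49.

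No probe set of the 10 genes separated the groups completely. For 0 of 20 were the 3 induced arrays all above the 3 uninduced ones, against 2.29% of all probe sets, and for 0 of 20 were they all below, against 2.26%. The sign of the difference was the same in all 3 clones at 3 of 20, each lower in induced cells, against 18.8% of all probe sets with the same sign in all clones and 9.16% lower in all: Tfap2c 1448977_at by -0.10, -0.08 and -0.14 in A1, B3 and C6, Krt8 1423691_x_at by -0.14, -0.06 and -0.52, and Hand1 1417525_at by -0.06, -0.36 and -0.00476. None of these reached an adjusted p under 0.05 in limma with the clone as a block.

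Clone A1 changed unlike the others at 1 of the 20 probe sets. When the induced minus uninduced difference of A1 was set against the mean of B3 and C6, 2.71% of all probe sets passed (limma, 1219 of 45037), 769 of them higher in A1 and 450 lower. Tfap2c 1436392_s_at was the 1 of 20, with a difference of -0.58 in A1 against 0.68 in B3 and 0.49 in C6, or -1.17 ± 0.19 (SE; 95% interval -1.60 to -0.74; limma, adjusted p = 0.0185). The comparison sets 1 clone against 2, was chosen with the direction of A1 already known, and leaves 1 residual degree of freedom per probe set before pooling, and on simulated data it made a larger share of false calls than its threshold allows. The other probe sets of Tfap2c gave 0.01 (95% interval -0.41 to 0.42) and 0.15 (-0.36 to 0.67), so the gene's probe sets did not give one answer. The next smallest adjusted p of the 20 was 0.171, for Eomes 1435172_at at 0.64. The brighter probe set of Cdx2 gave -0.42 (limma, adjusted p = 0.284), with a change of -0.36 in A1 against 0.07 in B3 and 0.06 in C6, and Krt8 1420647_a_at gave 0.05 (95% interval -0.38 to 0.48) and Krt18 -0.09 (-0.52 to 0.34).

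Leaving out A1 altered the call on the same probe set. In B3 and C6 alone with the clone as a block, 2.18% of all probe sets passed (limma, 981 of 45037), 392 higher and 589 lower in induced cells. Tfap2c 1436392_s_at was the 1 of 20, higher in induced cells by 0.59 ± 0.11 (SE, n = 2 and 2; limma, adjusted p = 0.0331), whereas 1448977_at gave -0.11 and 1418147_at gave -0.12 and neither passed. This fit used the same B3 and C6 differences as the comparison above, so its call is no separate support. A1 was left out with its direction already known, and 2 arrays in each state leave few residual degrees of freedom. In these 2 clones Krt8 1420647_a_at differed by -0.06 and Krt18 by 0.02.

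Krt8 and Krt18 were higher in A1 than in the other clones whether or not the transgene was induced. In a fit with terms for induction and clone, 1.13% of all probe sets differed between clones (limma F-test, 509 of 45037), and 5 of the 20 did: the 3 of Krt8, the 1 of Krt18 and Tfap2c 1448977_at. Adjusted p values given for levels between clones, here and below, come from this F-test of any difference among the 3 clones. A1 minus the mean of B3 and C6 is given as a size and was not tested by itself. Krt8 1420647_a_at averaged 7.85 over the A1 arrays, 6.36 over B3 and 5.96 over C6 (limma F-test, adjusted p = 0.00466). A1 exceeded the mean of B3 and C6 by 1.68 ± 0.10 (SE) on the log2 scale, or 2.80-fold over B3 and 3.69-fold over C6. The 5 probe sets belong to 3 genes, and Krt8 and Krt18 are neighbours on a chromosome. The other probe sets of Krt8 gave 1.56 (limma F-test, adjusted p = 0.0128) and 1.28 (adjusted p = 0.0222). Krt18 averaged 7.29 in A1, 6.49 in B3 and 6.48 in C6 (limma F-test, adjusted p = 0.0445). A1 exceeded the mean of B3 and C6 by 0.80 ± 0.10 (SE), or 1.74-fold over B3 and 1.75-fold over C6. The C6 and B3 arrays differed on Krt8 1420647_a_at by -0.40 ± 0.12 (SE, C6 minus B3) and on Krt18 by -0.01 ± 0.12.

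**Figure D3:**
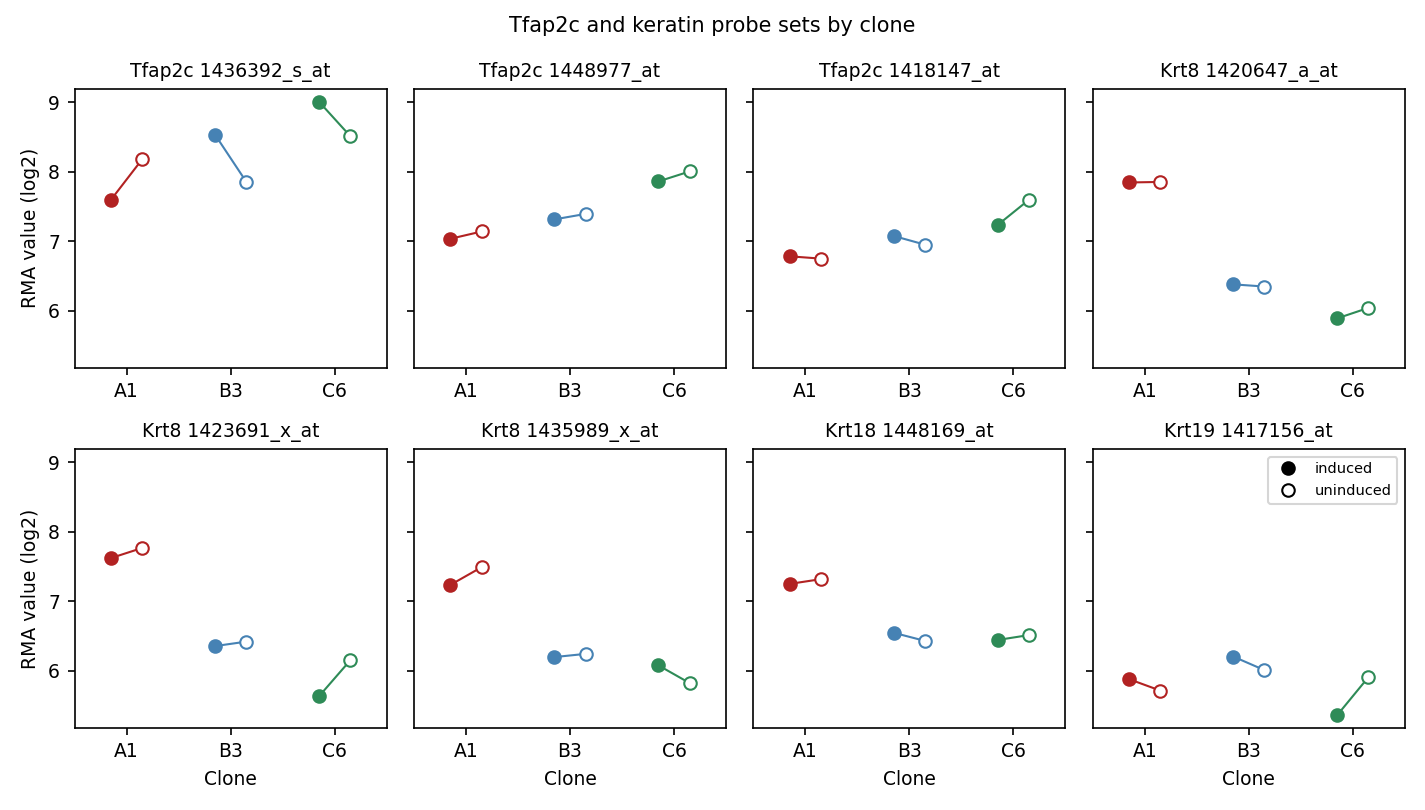
RMA values (log2, y axis) of the Tfap2c, Krt8, Krt18 and Krt19 probe sets by clone (x axis), 1 panel per probe set, with the induced array (filled) left of the uninduced array (open) of the clone. Krt8 and Krt18 are highest in A1 in both states, Tfap2c 1448977_at and 1418147_at are highest in C6, and Tfap2c 1436392_s_at slopes one way in A1 and the other way in B3 and C6.

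These calls rest on pairs of arrays and do not all hold when 1 array is left out. The A1 difference of Krt8 1420647_a_at stayed between 1.64 and 1.72, but its adjusted p was 0.0686 without induced B3 and 0.0689 without uninduced B3. The other probe sets of Krt8 also lost the call without either B3 array (adjusted p of 0.0931 to 0.189), and 1435989_x_at lost it without uninduced C6 (0.0617) and when only probe sets averaging 6 or more were tested (0.0558). Krt18 stayed between 0.75 and 0.85 and was not called without any 1 array of B3 or C6, with adjusted p of 0.140 to 0.319, nor when only probe sets averaging 6 or more were tested (adjusted p = 0.0804), with an intensity trend in the variance (0.0618) or after quantile normalization once more (0.0614).

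On 1448977_at and 1418147_at Tfap2c ran the other way between the clones. Its 1448977_at averaged 7.09 in A1, 7.35 in B3 and 7.93 in C6, so that A1 lay below the mean of B3 and C6 by -0.55 ± 0.10 (SE; limma F-test, adjusted p = 0.0459). C6 was above B3 by 0.58 ± 0.11 (SE), a 1.49-fold difference. The call was lost when only probe sets averaging 6 or more were tested (adjusted p = 0.0800), with an intensity trend in the variance (0.0713) and without any 1 array of B3 or C6 (adjusted p of 0.258 to 0.314). The 1418147_at probe set had the same order of clones, with A1 at -0.45 relative to B3 and C6 (limma F-test, adjusted p = 0.197). The brightest probe set, 1436392_s_at, gave -0.59 (limma F-test, adjusted p = 0.371), but its A1 arrays overlapped the others. Its difference was -0.0054 without induced A1 and -1.17 without uninduced A1.

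The remaining 13 probe sets, of Tfap2a, Cdx2, Eomes, Elf5, Hand1, Gata3 and Krt19, were not called between clones, with A1 minus the mean of B3 and C6 between -0.21 and 0.50 and a smallest adjusted p of 0.402 in limma. Counted over all 20, both A1 arrays lay above the 4 others at 5 probe sets, against 9.53% of all probe sets, and below them at 5, against 11.5%. Both C6 arrays lay above the others at 3, against 8.41%. Krt19, which like Krt18 pairs with keratin 8 but is encoded on chromosome 11, differed between A1 and the others by -0.07 ± 0.17 (SE).

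Most of the chromosome of Krt8 and Krt18, but not its first genes, was higher in A1. Over the 396 genes of chromosome 15 that averaged 6 or more, A1 minus the mean of B3 and C6 had a median of 0.33, against 0.00 to 0.08 on the other chromosomes and 0.02 over the 9143 genes outside chromosome 15. In gene order, the first 3 of 10 equal parts of these genes had a median of 0.01, with 60 of 118 genes higher in A1, and the last 7 parts had a median of 0.44, with 253 of 278 genes higher in A1. At 178 of those 278 both A1 arrays lay above all others, whereas C6 minus B3 had a median of 0.00 there. The division into parts was made after the values were seen. DNA was not measured, and the share of this difference over the last 7 parts in the level of the keratins was not tested.

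Krt8 and Krt18 lie in the last of these parts, whose 40 genes had a median of 0.49. Krt8 ranked first of the 396 genes and was 1.20 above the median of its part, and Krt18 ranked 20 and was 0.32 above it. The genes that follow them in order were Eif4b, a translation initiation factor, at 0.33, Tns2 at 0.14, Spryd3 at 0.33, Igfbp6 at -0.10 and Csad at 1.17 (limma F-test, adjusted p = 0.0676). On the other side, the type II keratin genes Krt78, Krt79, Krt4, Krt76 and Krt77 gave -0.12, 0.05, -0.10, -0.12 and -0.06, and all but Krt78 lay below the array median on every array. Igfbp6, which averaged 4.62, also lay below the array median on every array. The difference of Krt8 was larger than that of each of these 10 neighbours, and that of Krt18 was larger than that of all but Csad. Neighbours below the array median on every array may be too dim to show a clone difference, so they add little to this comparison.

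**Figure D4:**
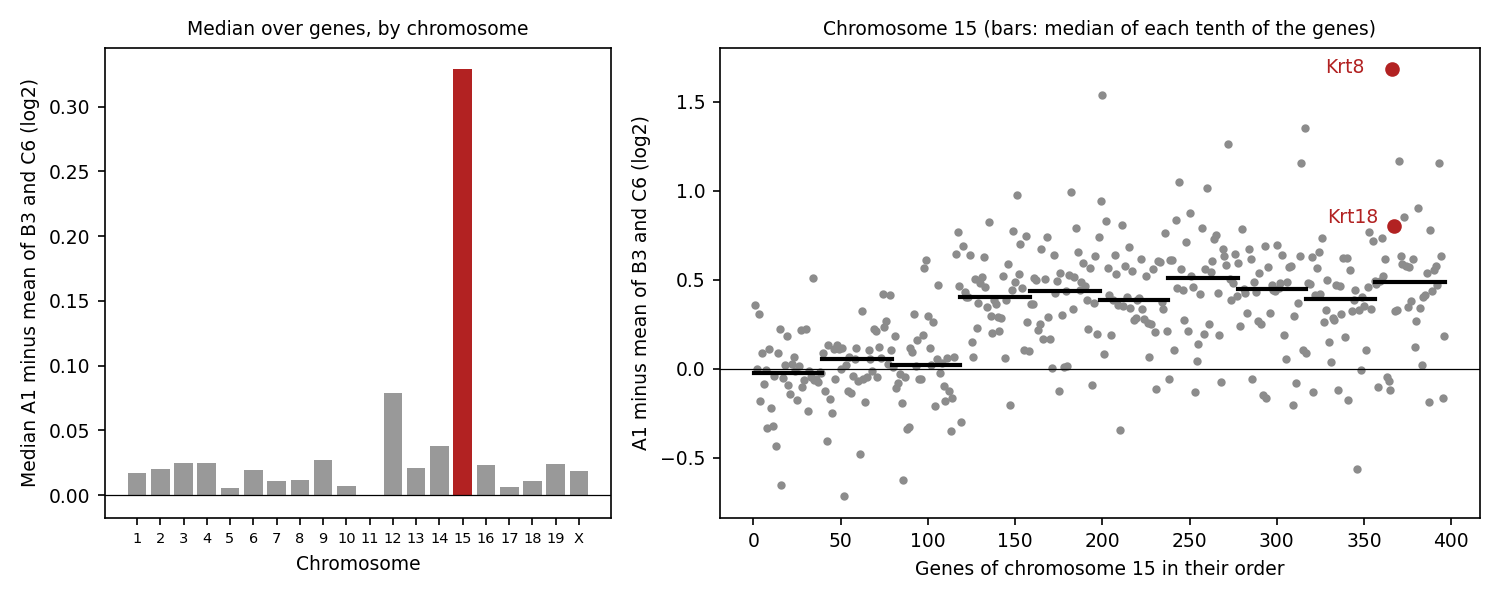
Left, median over genes of A1 minus the mean of B3 and C6 (log2, y axis) for each chromosome, over genes averaging 6 or more. Right, the same difference for the 396 genes of chromosome 15 in their order, with black bars for the median of each of 10 equal parts: the bars lie near 0 in the first 3 parts and between 0.38 and 0.51 in the last 7, and Krt8 at 1.68 is the highest point.

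Markers of other cells differed between A1 and the other clones in part. Over all 18193 genes, both A1 arrays were above all others at 11.7% and below all others at 12.2%. Among 10 markers of primitive endoderm, an early epithelium that also makes keratins 8 and 18, both A1 arrays were above all others at 5 (Sox7, Pdgfra, Dab2, Col4a1 and Afp), and the list mean was 5.37 to 5.38 on A1 arrays against 5.02 to 5.24 on the others. Their defining factors Gata6, Gata4 and Sox17 averaged 4.80, 4.95 and 4.91, and none of the 10 was called between clones. Of the 5, A1 was on top by 0.61 for Col4a1 but by only 0.0056 for Afp and 0.026 for Pdgfra. Sox7, Pdgfra and Afp were dim, averaging 4.37, 4.13 and 4.40. Lama1 and Foxa2 went the other way, with A1 minus the mean of B3 and C6 at -0.13 for each. Among 10 fibroblast markers 2 had both A1 arrays on top (Thy1 and Vim) and 3 had them below all others (Col1a2, Dcn and S100a4), with a median difference of -0.02 and list means of 5.57 to 5.68 on A1 arrays against 5.43 to 5.55 on the others, while Col1a1 and Col3a1 averaged 4.15 and 2.58. The part of these markers in the keratin levels was not tested, and in bulk RNA fewer cells of a type and less RNA per cell cannot be told apart.

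Genes beyond the 10 were examined as 2 lists. Of 26 other trophoblast genes, 0 were called between induced and uninduced cells (limma, 0 at an unadjusted p under 0.05), with 14 higher and 12 lower and a median of 0.00. Tead4 averaged 5.93 and Yap1 10.10, and their induction differences were 0.00 and 0.05. Between clones 0 of the 26 were called in limma. Against B3 and C6, the change of A1 was called at 2 of 26, where 2.68% of all genes were called: Klf6, a zinc finger factor, by -1.15 ± 0.19 (SE; limma, adjusted p = 0.0201), and Peg10, an imprinted gene required in the placenta, by 2.03 ± 0.36 (SE; limma, adjusted p = 0.0230). The next by p were Tfap2b, another AP-2 factor, at -1.06 and Smarca4, a chromatin remodelling ATPase, at 0.71, and neither passed (adjusted p = 0.0673 and 0.0898).

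Per array, Klf6 read 6.33, 7.02 and 7.36 in induced A1, B3 and C6 against 6.94, 6.37 and 6.92 uninduced. Peg10 read 4.91, 3.96 and 3.82 induced against 4.15, 4.70 and 5.63 uninduced. Its mean of 4.53 was below the level of 6 used for the filter on dim probe sets. Klf6 and Peg10 were each read by their brightest probe set, and any other probe sets of these genes are not described here. On both genes, the induced arrays of B3 and C6 lay to one side of the uninduced arrays of the same clones and A1 ran the other way.

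Of the 38 other keratin and junction genes that were measured, 0 were called between induced and uninduced cells (limma, 0 at an unadjusted p under 0.05), with 16 higher and 22 lower and a median of -0.02. The list holds 1 called change of A1 against B3 and C6 among its 38 genes, a share close to the 2.68% over all genes, that of Jup, which encodes plakoglobin of desmosomes and adherens junctions, at 2.23 ± 0.25 (SE; limma, adjusted p = 0.00436). Jup read 10.01, 9.19 and 8.29 in induced A1, B3 and C6 against 9.05, 10.17 and 9.86 uninduced. The next by p, the desmosomal cadherin Dsg2 at -0.79, St14 at 0.66 and Lsr at 0.66, did not pass (adjusted p of 0.0586 to 0.122). Between clones 1 of 38 was called, where 1.67% of all genes were, Esrp1, an epithelial splicing factor, which read 6.44, 8.59 and 8.78 induced against 6.64, 8.41 and 8.73 uninduced and was lower in A1 by -2.09 ± 0.11 (SE; limma F-test, adjusted p = 0.00405). Without induced or uninduced B3 its adjusted p was 0.0552 and 0.0600. Esrp1 and both keratins thus separated A1 from the other clones in opposite directions. Over the 38 genes both A1 arrays lay below all others at 13, against 12.2% of all genes. They lay above all others at 5, against 11.7%. Krt7, another simple-epithelium keratin, averaged 4.40 and differed between A1 and the others by 0.09, and E-cadherin (Cdh1) averaged 11.09 and differed by -0.36 (limma F-test, adjusted p = 0.283).

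The genes whose pattern over the 6 arrays was most like each bright member were named among 9557 genes averaging 6 or more, by Pearson's r and with no test, since 6 arrays from 3 clones give many high values. For Krt8 they were Ppp1r14d (r = 1.00) on chromosome 2 and Mief1 and Slc48a1 (both 0.996) on chromosome 15. For Krt18 they were 9930012K11Rik (0.996) on chromosome 14 and Arsa (0.996) and Copz1 (0.995) on chromosome 15. For Tfap2c 1436392_s_at they were Bnc2, Dbp and Dhx40 (each 0.992), and for Eomes they were Tacc2 (0.981), Pde8a (0.953) and Kctd2 (0.946). Between members, Krt8 and Krt18 correlated at 0.978, 0.951 and 0.963 for the 3 Krt8 probe sets, and Krt8 1420647_a_at and Tfap2c 1448977_at at -0.84, points that share the same clones.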

How the data were processed

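Total RNA of 3 ES cell clones, induced and uninduced, was hybridized to 6 arrays. The authors deposited log2 values per probe set, made by RMA with affy per the labels (versions not given in the sources used here); RMA quantile-normalizes the arrays, so a shift shared by most genes is removed. The deposited log2 values were used unchanged. Of 45101 probe sets, 64 controls were left out. The platform annotation gave 1 symbol for 34945 of the 45037 tested, several for 932 and none listed for 9160. All IDs of the 10 genes matched the RefSeq table, which gave chromosomes and gene order; promoters came from RefSeq on GRCm38.p6.

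Tests used limma 3.58.1 in R 4.3.3 (lmFit, eBayes, two-sided, Benjamini-Hochberg over all probe sets, threshold 0.05) in place of the per-gene test in the methods, as each group had 3 arrays. The fits were tested on simulated data, where all 3 made a larger share of false calls than the threshold allows, the test of the A1 change most of all. The number of arrays limits the precision: the median distance from estimate to interval end was 0.32 at probe sets averaging 6 or more.

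Genes named were all probe sets of the 10 symbols, the 3 most similar genes of each bright member, and up to 4 genes per list with the smallest p in the A1 comparison; a gene was represented by its brightest probe set. Neighbours of Krt8 and Krt18, markers, and Esrp1, Tead4, Yap1, Krt7 and Cdh1 were named after their values were seen. The genes and lists were chosen with earlier results of these data known. The same clones stand in both groups, so replicate numbers pair the arrays (the deviations of a clone's arrays from their group had a correlation of 0.53 in B3, 0.31 in C6 and 0.19 in A1); the fit without the block was the main one as the methods name no pairing. The labels call the clones biological replicates. Alternatives covered the block, the methods' t-test, array centring, a repeated quantile normalization, a filter on dim probe sets, the variance model, the threshold, 1 probe set per gene and the omission of arrays or clones.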

Additional observations from a re-analysis of the deposited data

Results flagged for a closer look

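Tfap2c 1436392_s_at and 4 genes of the lists were singled out because the induced minus uninduced change of clone A1 differed from that of B3 and C6 in a test of the difference itself (limma, adjusted p under 0.05 over all probe sets). That test was chosen with the direction of A1 already known, so its calls are no new support. It leaves 1 residual degree of freedom per probe set before pooling. On simulated data it made 55 false calls among 45037 probe sets, a larger share of its calls than its threshold allows. The difference of A1 minus the mean of B3 and C6 was -1.17 for Tfap2c 1436392_s_at (adjusted p = 0.0185), and the other probe sets of Tfap2c did not share it. It was -1.15 for Klf6 (adjusted p = 0.0201), 2.03 for Peg10 (adjusted p = 0.0230), 2.23 for Jup (adjusted p = 0.00436) and 1.02 for Esrrb (adjusted p = 0.0347). In all 5 A1 moved opposite to both other clones, so the sign of its change would turn if the labels of its arrays were exchanged, which was not tested. The groups of 3 arrays are too small for a search for outlying arrays.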

How the results depend on the processing

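Induced against uninduced gave 0 calls over all probe sets and over the 20 under every alternative, the replicate block included (0 calls), except without clone A1 and with a replicate block, where 981 probe sets and 1 of the 20 were called, and where Tfap2c 1436392_s_at, Klf6, Peg10 and Jup passed. The change of A1 was called at 1219 probe sets and at 2355 with a mean of at least 6, 2939 with an intensity trend and robust variance, 458 with 1 probe set per gene and 2642 at a threshold of 0.1, and Tfap2c 1436392_s_at was called in 6 of 6 alternatives with a test (limma, adjusted p of 0.00135 to 0.0255). Each of these 6 used all 6 arrays and the same A1 pair, so they are no separate support for that call. Between clones 509 probe sets were called, against 108 with a mean of at least 6, 1104 at a threshold of 0.1 and 1026 without a term for induction, a fit added after seeing the data; of the 20, 5 were called, against 2 with a mean of at least 6, 3 with the trend and 2 with 1 probe set per gene. Leaving out 1 array gave 11 to 3838 calls, and 0 to 7 of the 20, with 0 without either B3 array; Tfap2c 1436392_s_at was called without either A1 array and Eomes 1435172_at without uninduced A1. Leaving out 1 array turned the sign of A1 minus the mean of B3 and C6 at 7 of the 20, 0 of which were called with all 6 arrays, among them Krt19 (range -0.26 to 0.11, 0.10 without uninduced A1 and 0.11 without uninduced C6). Without induced A1 it also turned for Klf6 (0.29, range -0.86 to 0.29), Peg10 (-1.01, range -1.01 to 1.02) and Jup (-0.96, range -0.96 to 1.27), none of which was called between clones with all 6 arrays. The cause was not tested. The deposited values carry no background or detection call, so whether the dimmest probe set, that of Gata3, measured its gene was not tested.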

Other observations

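Chromosome 14 held 37 genes called between clones among its 324 with a mean of at least 6 (limma F-test, adjusted p under 0.05), against 12 of 396 on chromosome 15, whose median shift was larger (0.33 against 0.04). Plet1, a surface protein gene of trophoblast progenitors, was 0.83 higher in A1 than in the mean of B3 and C6 (limma F-test, adjusted p = 0.056). Both of its A1 arrays were on top. Rhox6, an X-linked homeobox gene of placenta, was lower in A1 by -0.62 (limma F-test, adjusted p = 0.067). Rhox6 read 5.46, 5.91 and 6.59 in induced A1, B3 and C6 against 5.96, 6.17 and 6.66 uninduced. A1 and B3 thus overlapped on Rhox6, and both C6 arrays lay above the others. The F-test is of any difference among the 3 clones, and A1 was not tested by itself. Plet1 and Rhox6 were chosen with their values already known.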
